A study of Arabidopsis with 8 samples.

Results

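Leaves of the ecotypes Shakdara (Sha) and Landsberg erecta (Ler) were compared without salt, with 2 Sha control arrays set against 2 Ler control arrays, which are 4 of the 8 arrays of the series. Seedlings of both ecotypes were raised on MS agar for 10 days and then moved to fresh MS plates, and RNA was taken 4 days later from pooled leaves, with a minimum of 30 seedlings on each plate. The other arrays came from the same ecotypes moved to plates with 100 mM NaCl, and they enter here through the estimate of the spread and as values given beside those without salt. Of 43572 kept probes, 33384 passed the detection filter, with a signal well above background on the 2 Sha arrays, the 2 Ler arrays or all 4, and were tested, and 28910 of these were assigned to 20851 loci. Levels are log2 signals over the 75th percentile of the same array, so a level of 0 is a bright signal on its array, and a difference is Sha minus Ler on the log2 scale. A probe was called when its Benjamini-Hochberg adjusted p in limma's moderated test, taken over all tested probes, was under 0.05 and its difference was more than 2-fold.

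Ecotypes are inbred lines collected from different places, and their leaf transcripts can differ both in level and in sequence. Salicylic acid and jasmonate are the main hormones of leaf defense, intracellular receptors of the nucleotide-binding leucine-rich repeat type (NLR) recognise pathogen effectors, and genes of this receptor class vary more between Arabidopsis lines than most others. An array probe is a fixed oligonucleotide, so a transcript that differs in sequence under the probe can also give a lower signal. The level of a locus is therefore that of its brightest probe, and the differences of further probes are given for some loci only. Probe sequences were not used here, and whether a probe lies over a variant was not tested.

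The median SD between the 2 arrays of a group was 0.079 for Sha and 0.084 for Ler on the log2 scale, and the replicates correlated at 0.995 and 0.994 over the tested probes. The labels call the replicates biological without saying whether they shared a plate or a sowing, so p-values measure only the spread between these pools, and the number of arrays limits the precision. Ler control replicate 1 was the dimmest array, with a 75th percentile 57.9 times its local background, and the other 3 control arrays lay between 102 and 136 times. All 12 leaf markers were well above background on every control array, with a summed signal of 1173 and 921 on the Sha arrays, against 1980 and 1289 on the Ler arrays, in units of each array's 75th percentile. All 27 root markers were also above background on every control array, and none of them was called. The root β-glucosidase gene PYK10 led, with 5.86 and 5.62 on the Sha arrays, against 6.78 and 6.23 on the Ler arrays. CASP1 had 2.17 and 2.16 on the Sha arrays, against 1.89 and 1.795 on the Ler arrays. The study names the tissue as leaves, and whether the pools held root tissue was not tested. Differences given here are therefore not assigned to leaf cells. In pooled leaves, fewer cells of a type and less RNA per cell cannot be told apart.

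Sha and Ler differed at 4296 probes, 12.9% of those tested. Of these, 1878 (5.63%) were higher in Sha and 2418 (7.24%) were lower. Over the brightest probe of each locus, 2317 of 20851 loci were called (11.1%), with 1081 higher (5.18%) and 1236 lower (5.93%). The share of called probes that were higher in Sha was 43.7%, and it was 29.2% when the background was corrected by normexp instead. The Sha and Ler arrays did not overlap at 76.8% of all tested probes, so separation of 2 arrays from 2 is common here and is not read as a result on its own. The median called difference was 1.66 on the log2 scale, and by the measured difference 272 probes were over 16-fold higher in Sha and 343 over 16-fold lower. Calls were more frequent among dim probes. When the probes were split into 4 equal groups by signal, 29.5% of the dimmest and 3.80% of the brightest were called. Loci of the 5 chromosomes were called at similar shares, between 10.4% and 11.8%. Probes for RefSeq non-coding transcripts were called at 24.6%, and those for RefSeq mRNAs at 11.6%.

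**Figure D1:**
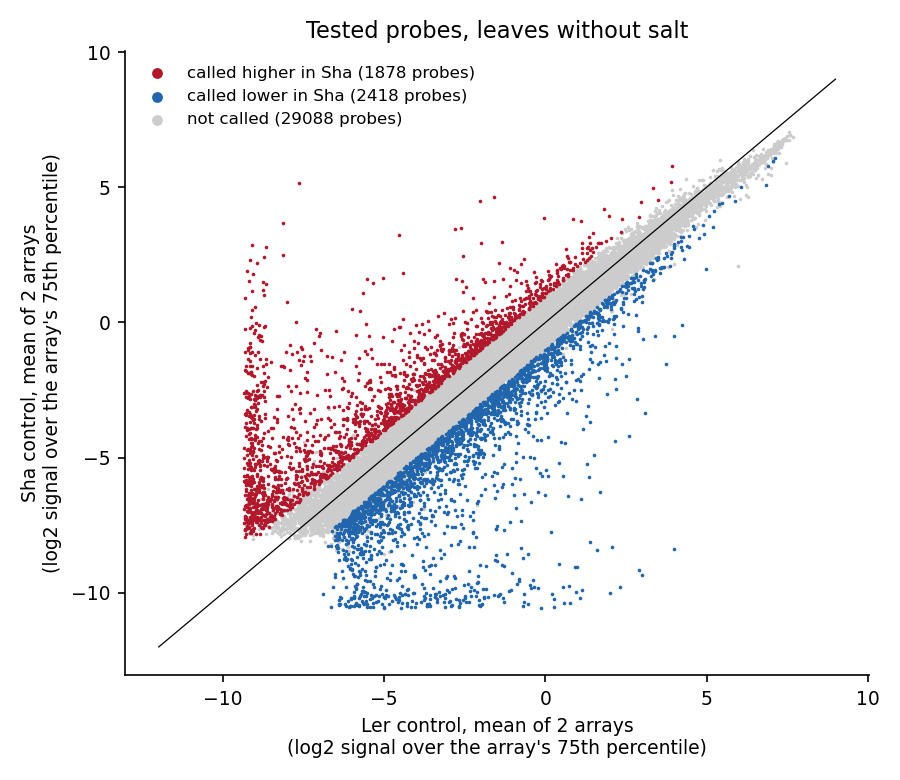
Mean level of each tested probe on the 2 Sha control arrays (vertical axis) against its mean level on the 2 Ler control arrays (horizontal axis), both as log2 signal over the array's 75th percentile. Red points are the 1878 probes called higher in Sha and blue points the 2418 called lower, and the strips at the left and lower edges are probes at background in Ler or in Sha.

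A share of the calls were at probes detected in 1 ecotype only. Further probes of the same locus can be detected in both ecotypes, as at HSC70-1 and AT5G11280 below. AT3G61030, AT2G05830, AT1G25141 and AT4G12545, among the loci named next, had 1 tested probe each. Of the tested probes, 1124 were at background on both Ler arrays and 328 on both Sha arrays, and 692 and 325 of them were called. Their measured difference depends on where background lies, so the named ones are given by a lower bound. It sets the mean of the detecting ecotype against the dimmest signal that counted as well above background on the other arrays. Where the probe's own signal on such an array was higher than that, its own signal was used. This bound was over 2-fold for 403 of the 1124 probes at background in Ler and for all 328 at background in Sha. The dimmest signal that counted as well above background was -6.66 and -7.39 on the Ler arrays, against -7.86 and -8.56 on the Sha arrays. Detection thus reached lower levels in Sha, and the part of this in the counts was not tested. The largest bound among the loci on the Sha side was at AT2G25510, with 5.19 and 5.14 on the Sha arrays, against -7.12 and -8.16 on the Ler arrays, which is at least 4676-fold higher in Sha (adjusted p = 4.46e-06). AT5G45500 followed with at least 697-fold (adjusted p = 2.56e-05) and AT3G61030 with at least 644-fold (adjusted p = 2.73e-06). AT2G05830, listed in RefSeq's table under the synonym MTI1, was at least 452-fold higher (adjusted p = 3.45e-06). On the Ler side, AT1G25141 had -8.53 and -9.77 on the Sha arrays, against 3.003 and 2.81 on the Ler arrays, and was at least 2218-fold lower in Sha (adjusted p = 7.52e-06). AT4G12545, AT5G44570, AT1G24388, AT5G05060 and AT3G47250 were lower in Sha by at least between 562-fold and 654-fold. These 10 loci were called the same way on the salt arrays.

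Among loci detected on all 4 control arrays, 1660 of 19700 were called (8.43%). AT2G25450 stood highest, with 4.70 and 4.59 on the Sha arrays, against -1.76 and -1.45 on the Ler arrays, a difference of 6.25 ± 0.13 (SE, adjusted p = 2.73e-06). Its 4 probes gave differences between 6.25 and 6.799. AT4G21650 had 0.31 and 0.54 on the Sha arrays, against -5.76 and -5.72 on the Ler arrays, a difference of 6.16 ± 0.20 (SE, adjusted p = 8.11e-06). FRO4, a metal reductase of the plasma membrane, had -0.32 and -0.033 on the Sha arrays, against -4.62 and -4.41 on the Ler arrays, a difference of 4.34 ± 0.15 (SE, adjusted p = 9.30e-06). The other 7 of the 10 highest were AT3G60960, AT3G44790, AT5G66052, AT4G11210, AT3G27420, AT4G02850 and AT2G42270, with differences between 4.08 and 5.16. Further probes did not always give these sizes. At AT3G60960 the other 2 probes were at background in Ler and at least 1.36-fold and 5.17-fold higher. At AT3G44790 one further probe gave 0.68 and was not called, and another was at background in Ler and at least 1.14-fold higher. At AT3G27420 the second probe gave 3.39, and at AT4G02850 it was at background in Ler and at least 131-fold higher. At the lower end stood AT1G35710, with -6.52 and -6.32 on the Sha arrays, against 0.68 and 0.71 on the Ler arrays, a difference of -7.11 ± 0.21 (SE, adjusted p = 5.87e-06), and its second probe was at background in Sha and at least 12.6-fold lower. PCR1, a small membrane protein named for cadmium resistance, had -4.43 and -4.35 on the Sha arrays, against 2.18 and 2.14 on the Ler arrays, a difference of -6.55 ± 0.16 (SE, adjusted p = 3.83e-06). JAL33, a jacalin-related lectin, had -2.82 and -2.87 on the Sha arrays, against 2.78 and 2.89 on the Ler arrays, a difference of -5.68 ± 0.13 (SE, adjusted p = 3.72e-06), and its 4 probes lay between -6.79 and -5.68. AIG1, first found as a gene induced by the bacterial effector AvrRpt2, had -4.87 and -5.50 on the Sha arrays, against 0.45 and 0.40 on the Ler arrays, a difference of -5.61 ± 0.22 (SE, adjusted p = 1.35e-05). The other 6 of the 10 lowest were AT1G23960, AT5G63225, AT5G05040, AT4G29760, AT3G48640 and AT1G49700, with differences between -6.54 and -5.93. The second probe of AT3G48640 gave -2.87.

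Many genes of salicylic acid defense were lower in Sha, PR1 and FMO1 among them. Of 28 listed loci, 14 were called lower, 1 higher and 13 were not called, against 5.93% of all loci called lower and 5.18% higher. Their median difference was -0.98, against -0.0014 over all tested loci. PR1, the pathogenesis-related protein most used as a marker of this hormone, had -3.90 and -3.96 on the Sha arrays, against 1.17 and 1.17 on the Ler arrays. Its difference was -5.10 ± 0.12 (SE, adjusted p = 3.84e-06), with -5.83 on the salt arrays. The glucanase gene BGL2 (also called PR2) had -1.41 and -1.46 on the Sha arrays, against 1.92 and 1.83 on the Ler arrays, a difference of -3.31 ± 0.078 (SE, adjusted p = 3.83e-06), and the thaumatin-like PR5 had 0.57 and 0.46 on the Sha arrays, against 2.35 and 2.33 on the Ler arrays, a difference of -1.82 ± 0.075 (SE, adjusted p = 1.69e-05). All 3 of these secreted proteins were bright in Ler, and the Sha and Ler arrays lay well apart.

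The regulators and enzymes upstream of these proteins were mixed. FMO1, which makes the mobile defense signal N-hydroxypipecolic acid, had -6.87 and -7.38 on the Sha arrays, against -2.56 and -2.62 on the Ler arrays, a difference of -4.53 ± 0.16 (SE, adjusted p = 1.05e-05). The transcription factors CBP60G and SARD1, which switch on salicylic acid synthesis, differed by -1.82 and -1.45, and NIMIN1, which binds the hormone receptor NPR1, by -2.49. EDS16, the isochorismate synthase that supplies the hormone, differed by -0.70 ± 0.19 (SE, adjusted p = 0.029), which is under 2-fold and was not called. The receptor NPR1 had -0.24 and -0.25 on the Sha arrays, against -0.23 and 0.039 on the Ler arrays, a difference of -0.15 ± 0.11 (SE, adjusted p = 0.295), and the signaling hub EDS1 differed by -0.23 ± 0.087 (SE, adjusted p = 0.0727). CYP71A13 and CYP71A12, which act early in camalexin synthesis, were lower, at -4.39 and -2.30, and PAD3, which completes camalexin, differed by -0.40 and was not called. ACD6, a membrane protein that promotes this pathway, was the member called higher, with 0.89 and 0.81 on the Sha arrays, against -0.12 and -0.23 on the Ler arrays and a difference of 1.02 ± 0.079 (SE, adjusted p = 2.05e-04). It lay at the 2-fold limit and was not called without Ler control replicate 2 (0.97) or without Sha control replicate 1 (0.98). All 5 further probes of the called members were called the same way as the brightest probe.

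**Figure D2:**
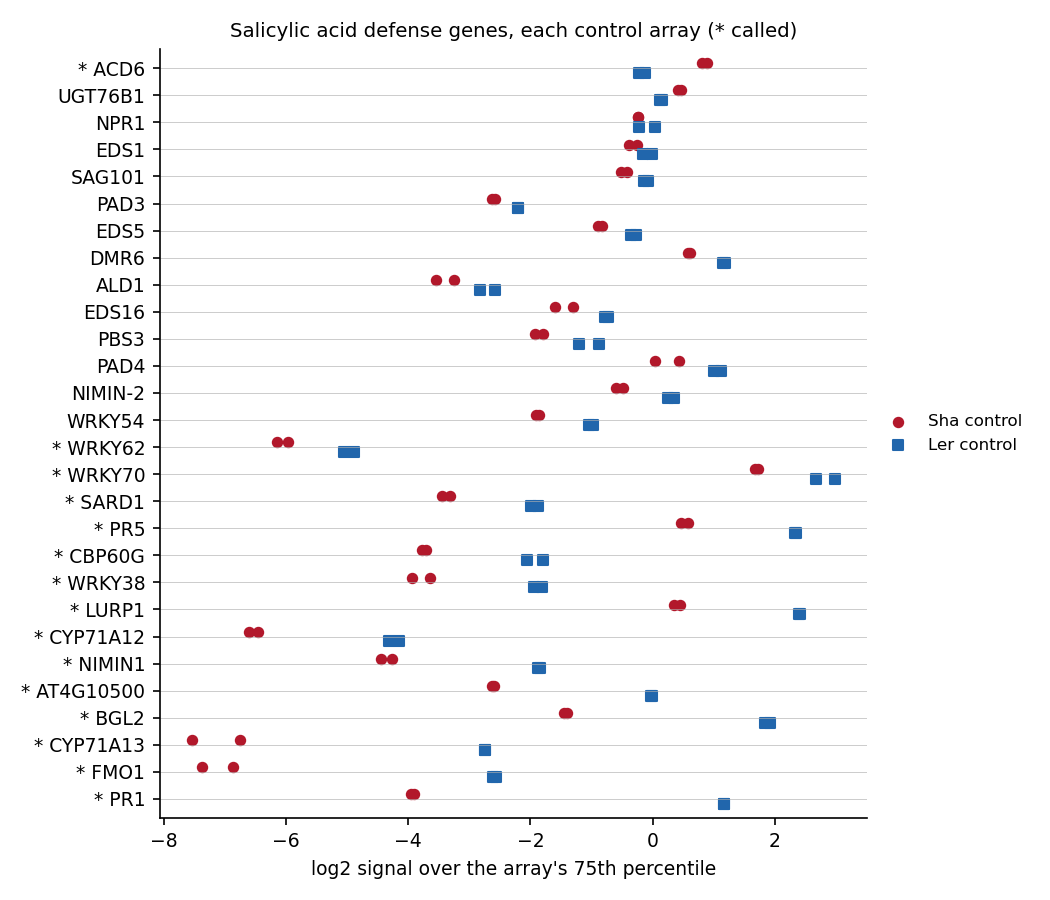
Level of the 28 salicylic acid defense genes on each control array, as log2 signal over the array's 75th percentile, with Sha arrays as red circles and Ler arrays as blue squares. Genes run from the highest difference at the top (ACD6, 1.02) to the lowest at the bottom (PR1, -5.10), and an asterisk marks a call.

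The WRKY transcription factors, many of which act in defense, were called in 1 direction. Of 65 tested members, 11 were called lower and none higher, against 5.93% and 5.18% of all loci. WRKY41 had -6.94 and -7.51 on the Sha arrays, against -3.96 and -4.28 on the Ler arrays, a difference of -3.11 ± 0.20 (SE, adjusted p = 9.61e-05), and WRKY50 had a difference of -2.60 ± 0.12 (SE, adjusted p = 2.77e-05). WRKY38, WRKY62 and WRKY70, which are in the salicylic acid list too, and the member listed as ABO3 were also called, at -1.91, -1.09, -1.12 and -2.31. Of 47 glutathione S-transferases, enzymes that conjugate glutathione to toxic compounds, 11 were called lower and 4 higher. GSTU8 had -0.12 and -0.074 on the Sha arrays, against 4.31 and 4.19 on the Ler arrays, a difference of -4.35 ± 0.08 (SE, adjusted p = 2.40e-06), and GSTU3 differed by -3.88 ± 0.14 (SE, adjusted p = 9.53e-06). On the higher side, GSTU2 differed by 1.60 ± 0.11 (SE, adjusted p = 1.19e-04).

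Jasmonate genes split. Of 26 tested loci, 8 were called lower, 2 higher and 16 were not called, against 5.93% of all loci called lower and 5.18% higher, and the median was -0.63. The 2 that were higher encode the vegetative storage proteins, which accumulate in leaves when the jasmonate pathway is active. VSP1 had 2.29 and 2.37 on the Sha arrays, against -0.58 and -0.72 on the Ler arrays, a difference of 2.98 ± 0.084 (SE, adjusted p = 5.59e-06), and all 4 of its probes were called higher. The 3 detected in both ecotypes lay between 2.47 and 2.98, and the other was at background in Ler and at least 13.6-fold higher. VSP2 had 1.89 and 2.02 on the Sha arrays, against -0.94 and -1.003 on the Ler arrays, a difference of 2.93 ± 0.076 (SE, adjusted p = 4.46e-06). The enzymes of jasmonate synthesis did not share this direction. The allene oxide cyclase gene AOC2 had -2.65 and -2.67 on the Sha arrays, against 0.42 and 0.39 on the Ler arrays, a difference of -3.07 ± 0.085 (SE, adjusted p = 5.56e-06), and AOC1 differed by -1.95 ± 0.15 (SE, adjusted p = 1.76e-04). LOX2 and AOS, which act before the cyclases, differed by 0.10 and -0.26, and OPR3, which acts after them, by 0.40, none of which was called. Among response genes, the acetyltransferase NATA1, the aminotransferase TAT3 and the arginase ARGAH2 were lower, at -3.25, -2.85 and -1.95. All 7 further probes of the called members were called the same way. On the salt arrays VSP1 and VSP2 were lower in Sha on their brightest probes, at -1.17 and -1.74, and AOC2 was at 0.57. The VSP1 probe at background in Ler without salt was called higher in Sha there, at 1.98. The other 3 probes of VSP1 were called lower.

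Terpene genes were called in both directions. Of 17 tested loci, 5 were called higher and 5 lower (58.8%, against 11.1% of all loci), with a median of 0.17. Of the higher loci 3 were at background in Ler, and of the lower 1 was at background in Sha. These passed the filter through 1 ecotype only. TPS04, the geranyllinalool synthase, which is also in the jasmonate list, had -8.20 and -8.21 on the Sha arrays, against -4.03 and -3.91 on the Ler arrays, a difference of -4.23 ± 0.22 (SE, adjusted p = 4.06e-05), and 1 Sha array was at background. CYP82G1, which turns the product of that pathway into a leaf volatile, was at background in Sha, with -8.56 and -8.62 on the Sha arrays, against -4.26 and -4.05 on the Ler arrays, and was at least 16.6-fold lower. PEN1, which forms the triterpene arabidiol, and CYP705A1, which cleaves it, were lower, at -1.01 and -2.57. MRN1, the marneral synthase, and CYP71A16, which oxidises marneral, were called higher. CYP71A16 differed by 2.42, and MRN1 was at background in Ler and at least 1.35-fold higher. Without Ler control replicate 1, 3 loci were called higher, and with normexp 1 was higher and 3 were lower.

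Both main copper/zinc superoxide dismutases were lower in Sha, and the iron enzyme FSD1 was higher. The list was drawn up after the superoxide dismutases had been seen, so its counts are a description. Of 23 tested loci, 5 were called lower, 4 higher and 14 were not called (39.1% called, against 11.1% of all loci), with a median near 0. Plants hold superoxide dismutases that use copper and zinc and others that use iron, and copper supply is known to shift their balance. CSD2, the copper/zinc enzyme of the chloroplast, had 2.03 and 1.95 on the Sha arrays, against 5.19 and 4.77 on the Ler arrays, a difference of -2.99 ± 0.15 (SE, adjusted p = 3.72e-05). CSD1, its cytosolic counterpart, had 3.54 and 3.50 on the Sha arrays, against 5.34 and 5.04 on the Ler arrays, a difference of -1.67 ± 0.12 (SE, adjusted p = 1.54e-04). CCS, the chaperone that loads copper into both, had 0.52 and 0.52 on the Sha arrays, against 2.36 and 2.31 on the Ler arrays, a difference of -1.81 ± 0.075 (SE, adjusted p = 1.69e-05). FSD1, the iron enzyme of the chloroplast, went the other way, with 5.05 and 4.88 on the Sha arrays, against 3.35 and 3.32 on the Ler arrays and a difference of 1.63 ± 0.085 (SE, adjusted p = 4.13e-05). The second probe of CSD1, CSD2 and FSD1 was called in the same direction in each case.

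The copper proteins plantacyanin (ARPN) and BCB were also lower, at -1.73 ± 0.14 (SE, adjusted p = 2.70e-04) and -1.96 ± 0.09 (SE, adjusted p = 2.56e-05), and the 5 probes of BCB lay between -2.17 and -1.90. On the supply side, FRO4 was higher, as given above, and so were the copper transporter COPT2, with 1.52 and 1.61 on the Sha arrays, against 0.50 and 0.57 on the Ler arrays, and the metal transporter YSL2, with 0.88 and 1.01 on the Sha arrays, against -0.13 and -0.022 on the Ler arrays. COPT2 and YSL2 lay close to the 2-fold limit, at 1.03 and 1.02, and only 2 members were called higher without Ler control replicate 1 or without Sha control replicate 2. SPL7, the transcription factor of copper starvation, differed by 0.34 ± 0.12 (SE, adjusted p = 0.0596), and the transporters COPT1, COPT5, HMA5, PAA1, PAA2 and RAN1 were not called. Plastocyanin, the most abundant copper protein of the leaf, has 2 genes, PETE1 at 0.62 and DRT112 at -0.71, and neither was called. On the salt arrays FSD1 was at 3.01, FRO4 at 3.87, CSD2 at -1.02 and CCS at -1.04. The other peroxide and superoxide enzymes of the list, catalases and ascorbate peroxidases included, were not called.

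**Figure D3:**
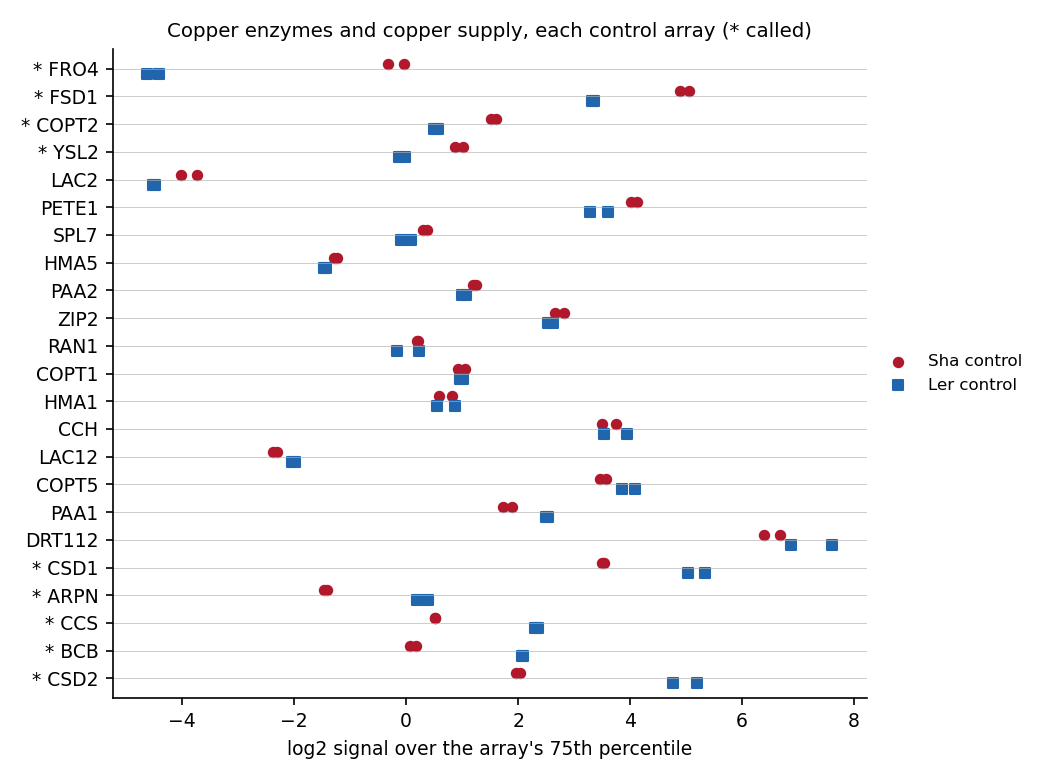
Level of the 23 tested copper enzymes and copper supply genes on each control array, as log2 signal over the array's 75th percentile, with Sha arrays as red circles and Ler arrays as blue squares. FRO4, FSD1, COPT2 and YSL2 at the top were called higher in Sha, and CSD1, ARPN, CCS, BCB and CSD2 at the bottom were called lower (asterisks).

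Transcripts of seed storage proteins were detected on the Sha control arrays and were mostly at background on the Ler control arrays. Of 9 listed loci, 7 were tested and all 7 were called higher. All 7 passed the filter only through the Sha arrays, 6 of them at background on both Ler arrays, so the count itself is not evidence. The cruciferin gene CRU3 had -2.11 and -1.90 on the Sha arrays, against -8.53 and -8.67 on the Ler arrays and was at least 32.4-fold higher (adjusted p = 2.29e-06), and its second probe was at least 1.36-fold higher. The cruciferin gene CRA1 had -3.30 and -2.97 on the Sha arrays, against -8.76 and -9.43 on the Ler arrays and was at least 14.8-fold higher, and its 3 probes were all called higher. The 2S albumin gene SESA3 was at least 8.7-fold higher, and the oleosin gene OLEO1, whose protein coats oil bodies, at least 4.15-fold. Summed over the 7 loci, the signal was 0.482 and 0.560 on the Sha arrays, against 0.0248 and 0.0260 on the Ler arrays, in units of the 75th percentile, and CRU3 held the largest share of it on the Sha arrays. With normexp 3 of the 7 were called.

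A second list of 22 seed and embryo genes, added after the storage proteins had been seen, held 18 tested loci, of which 11 were called higher and 1 lower. SESA5 had -1.14 and -1.14 on the Sha arrays, against -8.84 and -9.52 on the Ler arrays and was at least 59-fold higher. M17, a late embryogenesis abundant protein, was at least 19.9-fold higher, and the vicilin-like PAP85 at least 4.98-fold. All 11 passed the filter only through the Sha arrays, 10 of them at background on both Ler arrays, so this count is not evidence either. Of the 7 loci of the list detected on all 4 control arrays, none was called higher and 1 was called lower. Not every seed gene moved. OLEO4 was lower, with -3.28 and -3.20 on the Sha arrays, against -1.82 and -1.86 on the Ler arrays, and RAB28, OLEO3 and GEA6 differed by -0.016, -0.014 and 0.46 and were not called. With normexp, 1 of the 11 was called. On the salt arrays the order of several storage genes was turned round. SESA3 had -5.64 and -5.43 on the Sha salt arrays, against -0.78 and -0.66 on the Ler salt arrays, and 5 of the 7 storage genes were called lower in Sha there. CRU3 had -2.15 and -1.91 on the Sha salt arrays, against -1.70 and -1.74 on the Ler salt arrays, so that its Sha level was close to that without salt.

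**Figure D4:**
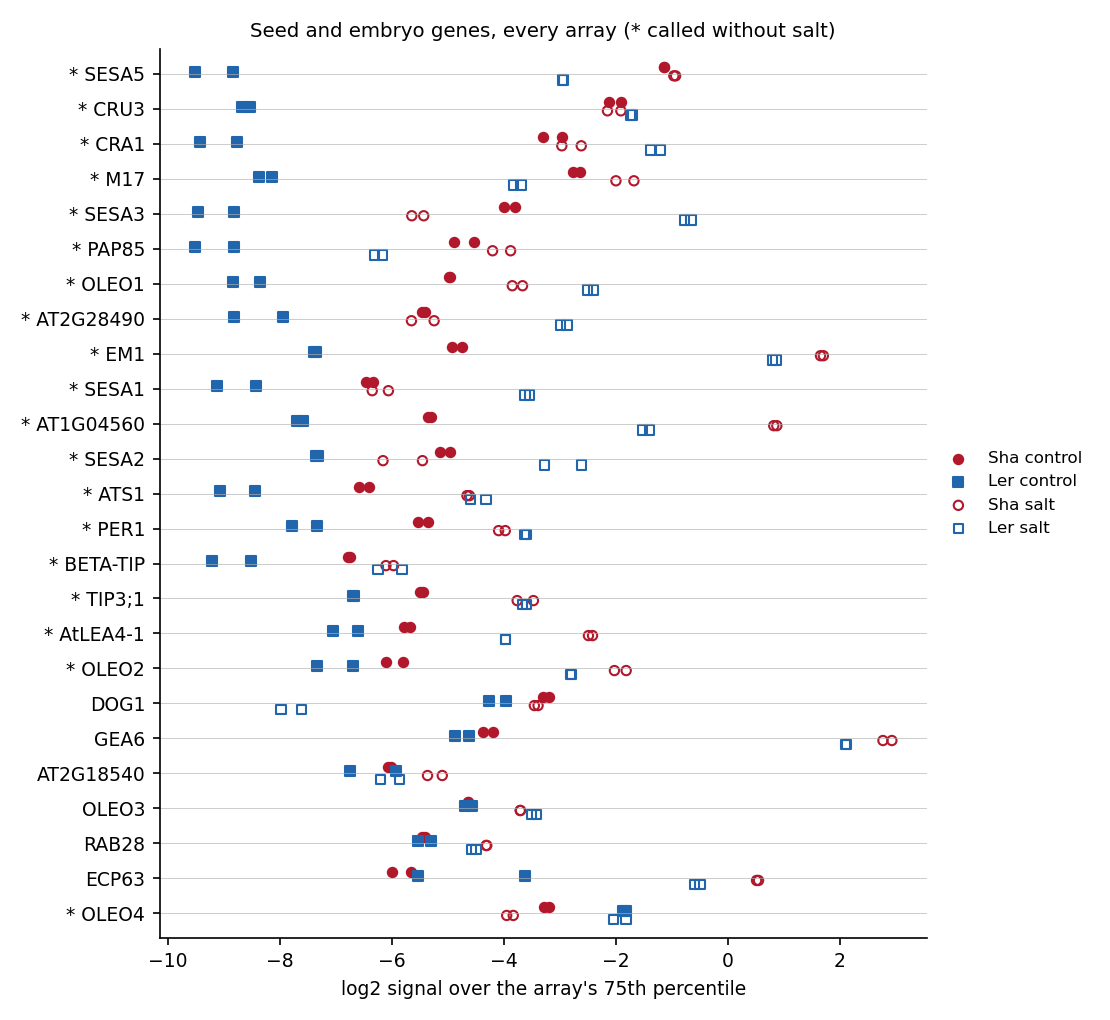
Level of the 25 tested seed and embryo genes on every array, as log2 signal over the array's 75th percentile, with Sha as red circles and Ler as blue squares, filled without salt and open with salt. Without salt the Ler squares of CRU3, CRA1, SESA3 and SESA5 lie at background, between -9.52 and -8.53, and all 4 open Ler pairs lie above them.

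Immune receptors were called at a higher share than loci at large. Of 119 tested NLR loci, 44 were called (37.0%, against 11.1% of all loci), with 19 higher and 25 lower and a median difference of 0.09. Of the 44, 12 were at background in Sha and 7 in Ler. Among the 95 detected on all 4 control arrays, 11 were higher and 11 lower, against 8.43% of all loci so detected. With normexp, 7 were called higher and 17 lower. Dim probes were called more often over the whole array, and the part of signal level in this share was not tested. AT1G62630 was at background in Sha, with -10.12 and -10.82 on the Sha arrays, against -2.72 and -2.65 on the Ler arrays, and was at least 46.1-fold lower. AT4G36140 was at least 47.3-fold lower. AT4G09420 and AT5G41740 were at background in Ler and were at least 19.1-fold and 20.7-fold higher in Sha.

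Several receptors have known specificities. RPP13 and RPP4, which recognise downy mildew, were higher in Sha, RPP13 with -0.045 and -0.10 on the Sha arrays, against -4.35 and -3.67 on the Ler arrays and a difference of 3.94 ± 0.33 (SE, adjusted p = 2.91e-04), and RPP4 with a difference of 2.62 ± 0.11 (SE, adjusted p = 1.93e-05). WRR4, which gives resistance to white rust, was lower, with -6.74 and -7.12 on the Sha arrays, against -2.64 and -2.95 on the Ler arrays and a difference of -4.14 ± 0.23 (SE, adjusted p = 4.83e-05). AT1G58602 had 3 probes, all called lower, at -4.74 and -4.29 on the 2 detected in both ecotypes and at least 30.7-fold lower on the one at background in Sha. Of 19 further probes at 12 called NLR loci, 15 were called the same way as the brightest probe and 2 the opposite way.

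Receptors at the cell surface were also frequent among the calls. Of 44 receptor-like proteins, 12 were called lower and 2 higher (31.8%, against 11.1% of all loci). Of the 12, 3 were at background in Sha, and 1 of the 2 was at background in Ler. Among the 35 detected on all 4 control arrays, 7 were lower and 1 higher, against 8.43% of all loci so detected. RLP34 and RLP6 were at background in Sha and at least 51.2-fold and 8.73-fold lower, RLP23, which recognises a peptide of microbial NLP toxins, differed by -1.87, and RLP33 was at least 2.53-fold higher. With normexp, 7 were called lower and none higher. Of 29 cysteine-rich receptor-like kinases, 9 were called lower and 7 higher (55.2%). Of the 7, 4 were at background in Ler and passed the filter only through the Sha arrays, and 1 of the 9 was at background in Sha. Among the 24 detected on all 4 control arrays, 8 were lower and 3 higher. CRK7 had -6.82 and -7.08 on the Sha arrays, against -2.62 and -2.57 on the Ler arrays, a difference of -4.35 ± 0.17 (SE, adjusted p = 1.26e-05), and CRK4, at background in Ler, was at least 19-fold higher.

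Light harvesting and housekeeping genes gave few calls. None of the 21 antenna genes was called, although their median was -0.61, and the median of the 12 leaf markers was -0.64. The level of these genes differed between arrays of 1 ecotype as well. LHCB3 had 6.16 and 5.81 on the Sha arrays, against 6.87 and 6.46 on the Ler arrays, a difference of -0.67 ± 0.18 (SE, adjusted p = 0.0269). Without Ler control replicate 2, 5 antenna genes and 4 leaf markers were called lower, without Sha control replicate 1, 2 antenna genes, and with normexp 1. None of 40 ribosomal protein genes and none of 39 proteasome genes was called, with medians of -0.20 and -0.12. In chlorophyll synthesis 1 of 13 loci was called. This was PORA, the protochlorophyllide reductase that acts in seedlings moving from dark to light. It had -8.61 and -8.56 on the Sha arrays, against -1.54 and -1.51 on the Ler arrays, and it was at background in Sha and at least 103-fold lower (adjusted p = 2.68e-06). All 3 of its probes were called lower. The one detected in both ecotypes gave -4.49, and the third was at background in Sha and at least 4.801-fold lower. PORA was called lower on the salt arrays too.

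Flowering genes included differences in both directions. Of 18 tested loci, 3 were called higher and 3 lower (33.3%, against 11.1% of all loci). FRI, which delays flowering through FLC, had -2.52 and -2.39 on the Sha arrays, against -5.003 and -4.67 on the Ler arrays, a difference of 2.38 ± 0.13 (SE, adjusted p = 4.89e-05), and its second probe gave 3.04. FLC itself had -7.000 and -6.72 on the Sha arrays, against -6.25 and -6.50 on the Ler arrays, a difference of -0.49 ± 0.16 (SE, adjusted p = 0.0516), and was not called. The FLC relative MAF1 was higher by 1.27, and AGL31 (also called MAF2) was lower, at -1.38. FT, the mobile flowering signal, had -4.34 and -4.21 on the Sha arrays, against -2.69 and -2.57 on the Ler arrays, a difference of -1.64 ± 0.092 (SE, adjusted p = 5.60e-05), and its second probe gave -0.94 and was not called. TSF, its close relative, was at background in Sha and at least 12.3-fold lower. Of 21 clock genes only FKF1, a blue light receptor that acts on FT, was called, with -2.95 and -2.75 on the Sha arrays, against -1.05 and -1.20 on the Ler arrays and a difference of -1.73 ± 0.10 (SE, adjusted p = 6.94e-05).

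Ler carries a mutated ERECTA gene, which encodes a receptor kinase for stem and leaf growth. Its transcript ER had 1.63 and 1.76 on the Sha arrays, against 1.68 and 1.74 on the Ler arrays, a difference of -0.013 ± 0.075 (SE, adjusted p = 0.898). Of 15 loci of ERECTA signaling and stomatal development, 4 were called and all 4 were lower (26.7%, against 5.93% of all loci called lower). They were the receptor-like protein gene TMM, the peptide genes EPF2 and CLL2 and the ERECTA relative ERL1, at -1.41, -1.30, -1.36 and -1.13. Of 8 tested loci of sodium transport and salt signaling none was called, and of 28 osmotic stress and cold markers 3 were called, all lower (DI21, LTI30 and ADH1), which is 10.71%, against 11.1% of all loci. AT1G26250, an extensin in the study's annotation, was higher by 1.60 ± 0.099 (SE, adjusted p = 8.13e-05), and AT1G77530, a methyltransferase there, by 1.59 ± 0.086 (SE, adjusted p = 4.72e-05).

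Glucosinolate genes were called in both directions. AT2G25450, described above, is in the list of aliphatic glucosinolate synthesis. Of 28 tested loci of that list 1 was called higher and 1 lower, AOP1 at -1.15 ± 0.14 (SE, adjusted p = 0.00133), which is 7.14%, against 11.1% of all loci. Among 17 loci of glucosinolate breakdown and transport, 1 was called higher and 3 lower (23.5%). The nitrile-specifier gene NSP3 was higher at 2.32 ± 0.23 (SE, adjusted p = 5.67e-04), and the myrosinase-binding proteins MBP1 and MBP2 were lower at -1.49 and -1.33. GLL22, also lower, was at -1.15, and its other 2 probes, at -0.49 and -0.885, were not called. In anthocyanin synthesis, 4 of 27 loci were called lower and 1 higher (18.5%, against 11.1% of all loci). The glucosyltransferase AT4G14090 was lower, with -1.20 and -1.23 on the Sha arrays, against 0.14 and -0.065 on the Ler arrays. The regulator TT8 differed by -1.56 ± 0.50 (SE, adjusted p = 0.0453), with -2.15 and -3.86 on the Ler arrays, and it was not called without Ler control replicate 1 (-0.70) or without either Sha array (-1.58 and -1.54).

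Probes of the same locus often disagreed. Of 6209 loci with several tested probes, 1028 had at least 1 call, and in 260 of those (25.3%) every probe was called the same way, 119 higher and 141 lower. In 744 only some probes were called, and in 24 probes were called in opposite directions. Of 1058 uncalled probes in the 744 loci, 695 were within 1.5-fold. Where the brightest probe was called and the locus had another, 322 of 522 further probes (61.7%) were called the same way and 88.3% had the same sign. AT2G25450 and AT2G34840 on the higher side and JAL33 and PORA on the lower side were among the loci with 3 or more probes that were all called the same way. The 3 probes of AT2G34840 were at background in Ler, and they were at least 7.13-fold, 28-fold and 36.2-fold higher in Sha.

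Probes disagreed widely at RPP5, a downy mildew receptor of the NLR class with close relatives beside it. Of its 4 probes, 3 gave 1.16, 2.60 and 4.54, and the other was at background in Sha and at least 98.3-fold lower. HSC70-1, an abundant cytosolic chaperone, had 8 probes. Of these, 7 lay between -1.03 and 0.01, the lowest just past 2-fold and called lower, and 1 was at background in Ler and at least 901.5-fold higher in Sha. AT5G11280 had 2 probes at 0.03 and 0.07 and 1 at background in Sha, at least 1176-fold lower. ACLA-2, a subunit of ATP-citrate lyase, had 2 probes at 1.28 and 1.68 and 1 at background in Sha, at least 57.6-fold lower. PP2-B10, a phloem protein, had -2.69 on its brightest probe and 4.97 on the second, and the third was at background in Ler and at least 42.8-fold higher. The level of these transcripts in Sha against Ler thus depended on the probe.

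**Figure D5:**
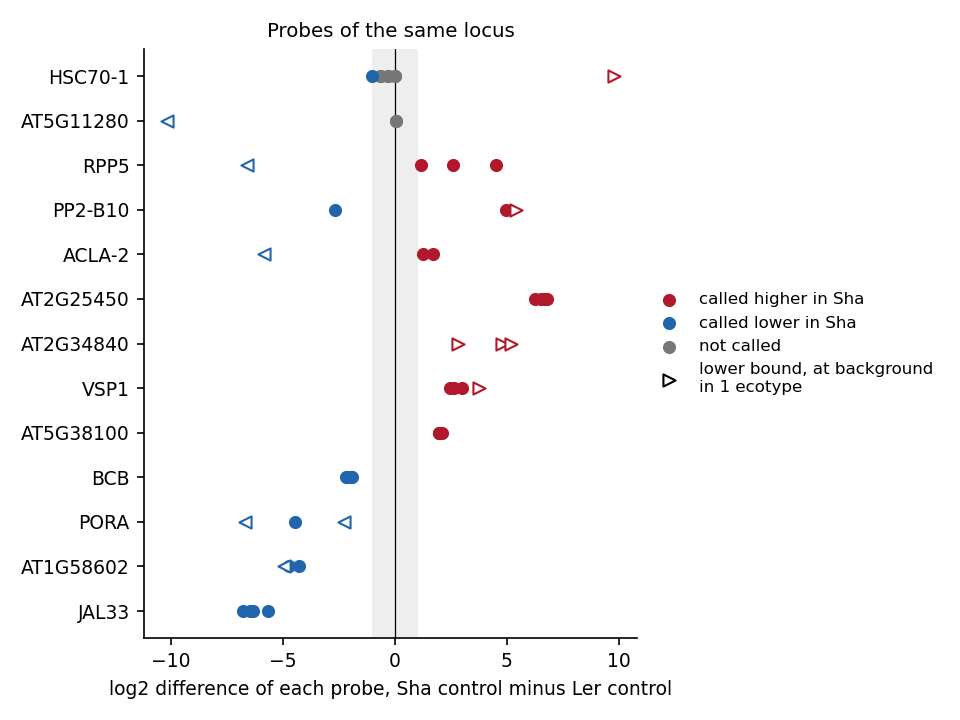
Difference of each probe, Sha control minus Ler control on the log2 scale, for 5 loci whose probes disagree (top) and 8 whose probes were all called the same way (below). Red probes were called higher in Sha, blue probes lower and grey probes not at all, and the grey band marks less than 2-fold. Open triangles are probes at background in 1 ecotype, drawn at their lower bound and pointing away from 0. HSC70-1 has 7 probes between -1.03 and 0.01 and 1 open triangle, at least 901.5-fold higher in Sha.

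Some called loci stood next to each other, and most stood alone. Of 1081 loci called higher, 862 had no neighbouring tested locus called the same way, and of 1236 called lower, 932 had none. Whether runs were more frequent than in a random order was not tested. The longest run of neighbouring tested loci called the same way held 6 loci on chromosome 5, from AT5G39110 to AT5G39190 (GER2, a germin-like protein), all lower. The 5 detected in both ecotypes lay between -3.26 and -1.49, and AT5G39160 was at background in Sha and at least 4.2-fold lower. AT5G39180 in this run had -3.02 and -3.08 on the Sha arrays, against -0.25 and -0.25 on the Ler arrays. There were 3 runs of 5. AT5G52720 to AT5G52760 were lower, between -3.62 and -2.17, except AT5G52730, which was at background in Sha and at least 9.19-fold lower. AT3G60920 to AT3G60980 were higher, with AT3G60961, AT3G60980 and AT3G60960 at 1.22, 2.45 and 5.16, and with AT3G60920 and AT3G60940 at background in Ler and at least 1.76-fold and 4.13-fold higher. In the run from AT4G01910 to AT4G01930, AT4G01910 was higher by 3.87. The other 4 loci of that run were at background in Ler, with bounds between 1.49-fold (AT4G01925) and 70.2-fold (AT4G01915). In a run of 4 on chromosome 4, from AT4G12470 to AT4G12500, the loci were lower by between 2.39 and 3.71 on the log2 scale. It begins with AZI1, which primes systemic immunity, and EARLI1. Neighbouring loci of a family can share sequence, and near-identical copies under 1 probe cannot be told apart. With normexp the difference at AT3G60920 was -0.040 and that at AT4G01925 was -0.19, so their direction depended on the background correction.

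A probe that the study pairs with AT3G02515 had -8.31 and -8.50 on the Sha arrays, against 1.67 and 1.56 on the Ler arrays, a difference of -10.02 ± 0.093 (SE, adjusted p = 3.88e-07), and was above background on 1 Sha array. Another, which it pairs with AT2G13665, had 0.029 and -0.044 on the Sha arrays, against -8.65 and -9.30 on the Ler arrays, and it was at background in Ler and at least 130-fold higher in Sha (adjusted p = 5.59e-06). Both were called the same way on the salt arrays.

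Most large differences between the ecotypes were also present on the salt arrays, where 4405 probes were called (13.2%), 6.03% of the tested probes being higher in Sha and 7.17% lower. By locus, 5.29% were higher and 7.66% lower. Of the 4296 probes called without salt, 2469 (57.5%) were called the same way with salt, 60 the opposite way, and 88.3% had the same sign. Of 615 calls over 16-fold, 582 were called the same way. A change of the ecotype difference between the conditions was called at 2706 probes (8.11%), 1177 of them among the calls without salt. The arrays with salt are other plants of the same lines, and the fit shares its estimate of the spread over all 8 arrays. Each slide held the control array and the salt array of the same ecotype and replicate number. A slide effect shared by both conditions and an ecotype difference cannot be told apart here.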

How the data were processed

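RNA of 8 leaf pools (2 ecotypes, with and without NaCl, 2 replicates each) was read on 1-colour Agilent arrays. The deposited intensity values are the authors' scanner output from Feature Extraction 10.7.1.1, background-subtracted there and not yet scaled between arrays. The deposited series table held the same intensity values at every spot and was used as an alternative. Control spots and 31 probes with outlier flags were left out, spots of 1 probe were averaged, and log2 signals were taken relative to the 75th percentile of each array. Probes were named through RefSeq accessions, which placed 34245 of 43572 probes in 25362 loci, and the brightest tested probe stands for a locus.

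Differences were fitted with limma 3.58.1 (lmFit and eBayes, R 4.3.3) over all 8 arrays with a mean for each of the 4 groups. Adjusted p-values are Benjamini-Hochberg values over all 33384 tested probes. The fit was also run on simulated independent arrays with variances drawn from the fitted prior and 200 changed probes. There 89% of probes changed by 2 on the log2 scale were recovered, 97% of those changed by 3, and 2 unchanged probes were called. Real arrays of 1 slide were correlated (0.55), which the simulation left out, so these values do not measure the error in these data. Tables and plots were made in Python 3.11.15. Alternatives covered scaling, background correction, the filter on dim probes, the arrays in the fit, moderation, and slide, scan date and replicate blocks. They also covered an equal-variance test, the probe standing for a locus and leaving out each control array.

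The members and lists were chosen with earlier results of these data known. Loci were named by rule: the 10 widest differences in each direction among loci detected on all 4 control arrays, the 6 largest bounds in each direction, up to 2 called loci per list and direction, loci with 3 or more probes that agreed or disagreed most, loci in the study's text with RAS1, ER, FLC and FRI, and the longest runs of neighbours. Other genes of the lists were chosen after their values were seen, as were the lists of copper genes and of other seed and embryo genes.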

Additional observations from a re-analysis of the deposited data

Results flagged for a closer look

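For 57 of the 172 loci named here, the difference between Sha and Ler was not the same in the 2 conditions. The test was the interaction of ecotype and salt in the fit over all 8 arrays, called at an adjusted p below 0.05 where the 2 differences lay over 2-fold apart, as for 8.11% of all tested probes. Many of the loci were named for their difference without salt, which is part of this test, so the 8.11% is not a like comparison. Of the 4296 probes called without salt, 1177 were called in this test. Each value is the difference with salt minus the difference without salt on the log2 scale, so a positive value means that Sha stood higher relative to Ler with salt than without. Where a probe was at background in 1 group, the size of the value depends on where background lies.

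Among seed genes the change was -10.05 at SESA3, -7.46 at CRA1, -6.902 at CRU3, -6.04 at SESA5, -4.93 at OLEO1, -3.63 at M17 and -2.26 at PAP85. Among jasmonate genes it was -4.67 at VSP2, -4.15 at VSP1, 3.64 at AOC2, 1.698 at AOC1 and 1.99 at NATA1. Among salicylic acid, camalexin and WRKY genes it was -1.26 at PR5, -1.22 at FMO1, -1.67 at PAD3, -1.06 at WRKY70, -2.08 at WRKY41 and 1.82 at ABO3. Among receptors it was -2.14 at WRR4, 3.38 at RLP34, 1.77 at RLP23 and -3.84 at CRK4. For metal enzymes it was 1.97 at CSD2 and 1.38 at FSD1, and for flowering and light genes 1.099 at FT, 1.89 at TSF, 1.36 at FLC and 2.17 at FKF1.

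Among terpene and other metabolic genes the change was 1.89 at CYP82G1, -1.18 at CYP71A16, -1.39 at PEN1, 1.02 at GSTU8 and 1.45 at MBP2. Among genes of growth, stress and regulation it was 1.47 at CLL2, 1.04 at DI21, 2.08 at PDF1.4, 4.63 at NAC060, 2.96 at HSFA6B, 1.67 at HSFC1 and 2.39 at AGL23. Among other loci, those higher in Sha without salt changed by -3.78 at AT2G25450, -3.43 at AT2G25510, -4.37 at AT4G11210, -2.44 at AT2G42270, -1.73 at AT3G44790, -1.13 at AT4G21650, 2.54 at AT5G66052, -1.97 at AT4G01925 and 1.698 at AT2G13665. Those lower in Sha without salt changed by 4.66 at AT4G12545, 2.504 at AT1G35710, 2.47 at AT3G48640, 1.51 at AT5G52760, 2.899 at AT5G52730, 1.76 at AT3G02515, -1.78 at AIG1 and -1.65 at PCR1.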

How the results depend on the processing

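The background correction and the form of the test moved the counts most. With normexp, 1888 probes were called, 552 higher and 1336 lower (29.2% higher, against 43.7%), with 1142 loci, 125 loci whose several probes were all called the same way, and 2399 probes with salt. With probes above background on all 4 control arrays only, fewer probes entered and 1064 were called higher. An equal-variance test of each probe was chosen here, since the study gives limits but names no test. At an unadjusted p under 0.01 and 2-fold it called 2531 probes (1145 higher, 1386 lower), 1539 loci and 143 several-probe loci. After Benjamini-Hochberg adjustment at 0.05 it called 1896 (849 higher, 1047 lower), 1166 and 82. Leaving out 1 array gave between 3820 and 4393 probes.

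The main fit did not pair the samples by replicate number, and whether the numbers pair them is not settled. Deviations from the group mean correlated at 0.25 between the first control replicates of Sha and Ler. First replicates shared a scan date, and the second replicates of Ler and of Sha were scanned on different dates. With a replicate block 4549 probes were called. Each slide held 1 ecotype, and slide as a random block gave 4294. A scan date block gave 4172 probes, and 4840 were over 2-fold in the first replicates alone, which were read on the same date. The last setting was chosen after the data were seen. No call was called in the opposite direction under any setting. Of the 143 loci named by rule, 5 changed sign, all with normexp and all at background in Ler: LCR25 (-0.059), GSTU15 (-0.078), AGL44 (-0.097), AT3G60920 (-0.040) and AT4G01925 (-0.19). Dim probes set the limit, since 29.5% of the dimmest of 4 signal groups were called and their level rests on the background.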

Other observations

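Other gene families were called in both directions. Over all loci 5.18% were called higher and 5.93% lower. Of 202 cytochromes P450, 22 were called higher and 25 lower. CYP71A15 had -2.09 and -2.04 on the Sha arrays, against -6.04 and -8.89 on the Ler arrays, a difference of 5.40 ± 0.82 (SE, adjusted p = 0.00324), and was above background on 1 Ler array. CYP71A14, its close relative, was at background in Sha and at least 21.6-fold lower. Of 57 UDP-glycosyltransferases, which attach sugars to small molecules, 5 were higher and 6 lower. UGT71B5 was at background in Sha and at least 11.4-fold lower, and UGT89B1 was higher by 1.86 ± 0.076 (SE, adjusted p = 1.68e-05) on its brightest probe. Its second probe was at background in Ler and was not called (adjusted p = 0.199). Of 28 defensin-like peptides and thionins, 3 were called in each direction, with PDF1.4 at -2.87 ± 0.11 (SE, adjusted p = 1.45e-05). All 3 higher loci were at background in Ler and passed the filter only through the Sha arrays. Among the 22 detected on all 4 control arrays, none was called higher and 2 were called lower.

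Among transcription factors, 7 of 81 NAC loci were lower and 3 higher (12.3% called, near the 11.1% of all loci). NAP, which promotes leaf senescence, had -1.92 and -1.78 on the Sha arrays, against 0.53 and 0.38 on the Ler arrays, a difference of -2.30 ± 0.085 (SE, adjusted p = 1.18e-05), and its second probe gave -0.82 and was not called. NAC060 was at background in Ler and at least 5.14-fold higher. Of 46 MADS box loci, 6 were called in each direction, and AGL23 was at background in Sha and at least 4.2-fold lower. Of 19 heat shock factors, HSFA2, which sustains the heat response, was higher by 1.16 ± 0.092 (SE, adjusted p = 2.32e-04), and HSFA6B and HSFC1 were lower, at -2.16 ± 0.082 (SE, adjusted p = 1.25e-05) and -1.08 ± 0.071 (SE, adjusted p = 1.00e-04). None of 8 flower markers and none of the 5 tested shoot meristem markers was called.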
